A study of Mus musculus with 9 samples.

Results

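CpG-poor gene ends are the ends of protein-coding genes that lack the dense cluster of CpG dinucleotides found at most mammalian gene starts. They were taken here as autosomal protein-coding genes of the mouse genome build GRCm38 in which both ends hold 20 or fewer CpGs, an end being the stretch from 1000 bp outside to 500 bp inside the gene span. Olfactory and vomeronasal receptor genes, with symbols that start with Olfr or Vmn, were left out. Of 20661 autosomal protein-coding genes, 5548 were CpG-poor at both ends, 1390 of them were Olfr or Vmn genes, and 4158 were left. At each gene the end with more CpGs was measured, and 3377 genes (81.2%) had at least 3 CpGs there and at least 30 CpG reads in every library. A further 112 had fewer CpGs and 669 fewer reads. The 3377 windows are 17.5% of the 19274 gene-end windows measured, and 52 of them overlap the window of another member.

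Spleen B cells of homozygous (HOM), heterozygous (HET) and wild-type (WT) mice were compared by bisulfite sequencing of the whole genome, which reads the methylation of single cytosines. The mutation is the Ile5482Asn change of Kmt2d, which encodes a histone H3K4 methyltransferase. Bulk B cells were isolated by magnetic negative depletion from mice that had received no treatment, and the labels give no strain or age. Only the HOM and HET column names also carry the label ENU, the name of a chemical mutagen. Each genotype has 1 pair of count columns, treated as 1 library, so there is no replicate check and every test below compares libraries and not genotypes. The level of a window is its methylated CpG reads divided by all its CpG reads. Mean depth was 9.85 reads per CpG in HOM, 12.9 in HET and 9.18 in WT, and a member window held a median of 155, 203 and 143 CpG reads in HOM, HET and WT. Intervals are 95% intervals that cover counting error only and treat CpGs on 1 read as independent.

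The libraries did not cover the same CpGs everywhere. Of autosomal CpGs with at least 10 reads in both other libraries, 1.07% had no read in HOM, 0.7% in HET and 1.26% in WT. Such a CpG lay in 565 members (16.7%). A window level can then differ between libraries because other CpGs are read, so the differences named below were also computed over the CpGs read in every library, called shared CpGs. A window level also weights each CpG by its reads, and where a call held over shared CpGs but the mean over CpGs with at least 3 reads in each library gave a difference of under 10 points, the limit used for a call, that value is given too.

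DNA methyltransferases add a methyl group to most CpGs of mammalian genomes, and CpG-dense promoters are a known exception that stays unmethylated in nearly all cell types. Promoters with few CpGs are mostly methylated by default and are known to lose methylation in the cell types where transcription factors occupy them. Many genes for secreted proteins, receptors and cell type functions have promoters of this kind, among them albumin in the liver, keratin-associated proteins in the hair follicle and surface receptors of lymphocytes.

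The promoter stretches below show what CpG-poor means at the level of the sequence. Each is the 250 bases before the annotated start, read 5′ to 3′ on the strand of the gene, from RefSeq on GRCm38.p6, in lower case with each CpG in capitals. Herc6, Evi2b and Hcls1 are shown because they were among the members with the lowest levels, Alb because it was a highly methylated gene of another tissue, and S100a8 and Ifi44l because their levels differed between the libraries.

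Herc6 (chr6:57580742-57580991, plus strand): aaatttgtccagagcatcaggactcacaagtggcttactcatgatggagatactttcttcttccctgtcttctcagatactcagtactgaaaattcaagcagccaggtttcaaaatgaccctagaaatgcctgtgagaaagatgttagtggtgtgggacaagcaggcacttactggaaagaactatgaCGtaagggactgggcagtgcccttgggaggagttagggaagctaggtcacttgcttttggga
Evi2b (chr11:79523763-79524012, minus strand): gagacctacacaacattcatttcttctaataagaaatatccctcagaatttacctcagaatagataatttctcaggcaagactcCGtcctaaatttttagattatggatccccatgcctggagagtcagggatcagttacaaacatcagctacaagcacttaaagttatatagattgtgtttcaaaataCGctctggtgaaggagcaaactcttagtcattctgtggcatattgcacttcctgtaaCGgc
Hcls1 (chr16:36934733-36934982, plus strand): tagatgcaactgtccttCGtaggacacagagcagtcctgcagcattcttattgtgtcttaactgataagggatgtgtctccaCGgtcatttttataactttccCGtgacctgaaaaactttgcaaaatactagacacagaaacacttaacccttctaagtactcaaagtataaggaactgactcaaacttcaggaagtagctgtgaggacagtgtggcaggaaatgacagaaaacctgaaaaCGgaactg
Alb (chr5:90460620-90460869, plus strand): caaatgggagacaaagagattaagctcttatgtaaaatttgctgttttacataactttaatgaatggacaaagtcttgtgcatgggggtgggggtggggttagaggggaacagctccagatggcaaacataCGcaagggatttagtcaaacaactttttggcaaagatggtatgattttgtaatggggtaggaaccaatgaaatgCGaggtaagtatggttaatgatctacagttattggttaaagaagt
S100a8 (chr3:90668821-90669070, plus strand): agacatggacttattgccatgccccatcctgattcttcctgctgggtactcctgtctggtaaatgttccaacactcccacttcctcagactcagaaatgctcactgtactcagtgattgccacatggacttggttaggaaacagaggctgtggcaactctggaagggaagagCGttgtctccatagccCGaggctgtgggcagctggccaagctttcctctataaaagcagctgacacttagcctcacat
Ifi44l (chr3:151762892-151763141, minus strand): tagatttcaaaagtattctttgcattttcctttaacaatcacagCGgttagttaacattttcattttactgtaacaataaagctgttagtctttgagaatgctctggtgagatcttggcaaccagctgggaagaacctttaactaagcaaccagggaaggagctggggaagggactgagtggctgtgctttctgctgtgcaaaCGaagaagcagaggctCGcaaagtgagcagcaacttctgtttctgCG

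The only CpG before Herc6, 62 bp before its start, was unmethylated in all of 24 reads in HOM, 34 in HET and 22 in WT. No methylated read was found at the 3 CpGs before Evi2b, over 21, 43 and 28 CpG reads in HOM, HET and WT. Nor was one found at the CpGs before Hcls1, over 47, 97 and 51 CpG reads in HOM, HET and WT, where the CpG 168 bp before the start had no read in HOM. The 2 CpGs before Alb stood at 100% of 8 CpG reads in HOM and 86.4% of 22 in HET. In WT the CpG 119 bp before the start had no read, and the CpG at 45 bp stood at 80% of 5 reads. Alb, with 2 CpGs in the stretch, thus lay at the other end of the methylation scale from Herc6 with 1 and Evi2b with 3. Before S100a8 the 2 CpGs stood at 53.6% of 56 CpG reads in HOM, 40.7% of 54 in HET and 16.2% of 37 in WT. The CpG 62 bp before its start was methylated in 14 of 29 reads in HOM, 7 of 27 in HET and 0 of 17 in WT. Before Ifi44l the CpGs 47 and 31 bp from the start had 15 and 18 reads in HET and no read in HOM or WT, so that the stretch as printed was measured in full only in HET.

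Most CpG-poor gene ends were methylated in the B cells, and a minority of 95 (2.81%) stood below 20% in the mean of the libraries. These 95 are called lowly methylated below. Another 269 stood between 20 and 50%, 1200 between 50 and 80%, and 1813 (53.7%) at 80% or over. The mean over members was 72.9% in HOM, 75.5% in HET and 76% in WT, and the medians were 78.8%, 81.9% and 82.3% in HOM, HET and WT. The lowest member was Herc6 at 0.333% and the highest stood at 97.5%. The other 14858 gene-end windows, with more CpGs at an end, showed the opposite picture, with means of 20.4%, 21.6% and 21.6% in HOM, HET and WT and 71.7% of windows below 20%. Tiles of 1500 bp that also hold 20 or fewer CpGs but lie away from gene ends stood at 79.4%, 82.3% and 83% in HOM, HET and WT, and 0.189% of the 1037561 tiles were below 20%. The tiles held fewer CpGs, with a median of 10 against 14 at the members, and were therefore also set against members by CpG number. Of tiles with 16 to 20 CpGs 0.448% were below 20%, against 3.8% of members, and of tiles with 11 to 15 CpGs 0.208%, against 2.74% of members. With 6 to 10 CpGs the share was 0.0931% of tiles and 1.36% of members, and with 3 to 5 CpGs 0.0869% of tiles and 2.08% of members. In each class of CpG number, low windows were a larger share of gene ends than of tiles in these 3 libraries.

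**Figure D1:**
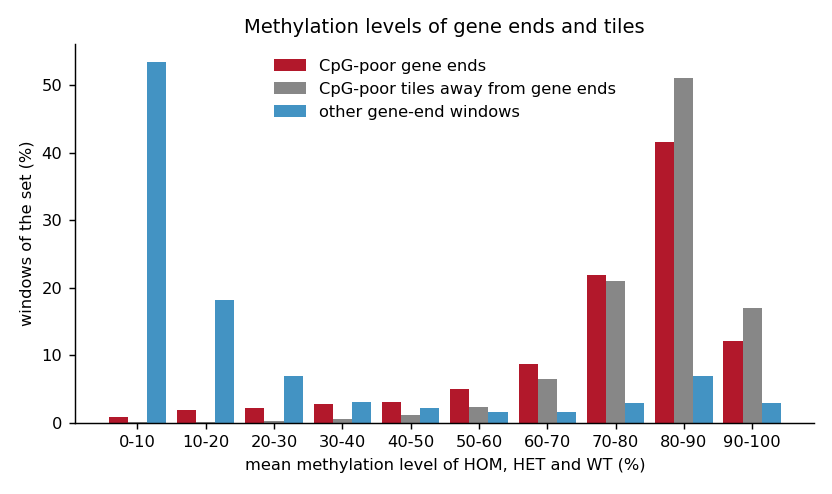
Share of windows (%, vertical axis) in classes of the mean methylation level of HOM, HET and WT (%, horizontal axis) for CpG-poor gene ends, CpG-poor tiles away from gene ends and other gene-end windows. The class of 80 to 90% holds 41.6% of CpG-poor gene ends and 51.1% of tiles, and the class of 0 to 10% holds 0.859% of CpG-poor gene ends, 0.0487% of tiles and 53.4% of other gene-end windows.

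Low windows were also found on both sides of the limit of 20 CpGs. Of the 269 members with exactly 20 CpGs in the window, 11 (4.09%) were lowly methylated, and of the 284 genes left out with 21 CpGs, 24 (8.45%) were. The classes of 3 to 5, 6 to 10, 11 to 15 and 16 to 20 CpGs given above hold 96, 809, 1131 and 1341 members, of which 2, 11, 31 and 51 were lowly methylated.

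The lowly methylated windows lay at gene starts. The strand is annotated for 71 of the 95, and in 69 the measured window was the start of the gene, against 56.8% of the 2681 members with a strand. The exceptions were Nxpe3 and Fut7, a fucosyltransferase gene that makes selectin ligands. Another protein-coding gene lies in 11 of the 95 windows, and in 446 windows of all members. Among the 11 are those of Nxpe3 (with Nfkbiz), Baz2a (with Atp5b), Mtrf1l (with Rgs17) and Evi2b (with Nf1 and Evi2). The low level of such a window is not that of the named gene alone. In 73 of the 95 the other end was measured as well, with a median of 86%, and it was below 20% in none of them. Over 2250 CpG-poor genes with both ends measured and a strand, the start stood at a mean of 70.5% in HOM, 73.2% in HET and 73.7% in WT, and the other end at 78.4%, 81.6% and 82.2% in HOM, HET and WT. The start was the lower end in 62.5% of the genes in HOM, 63% in HET and 62.7% in WT.

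Around the start of the 71 lowly methylated genes with a strand, the level fell away over about a kilobase. In 69 of them the start window was itself chosen for its low level. A dip between 1000 bp outside and 500 bp inside therefore follows from the choice. Between 2000 and 1900 bp upstream the level was 77.8% in HOM, 80.02% in HET and 78.2% in WT. In the first 100 bp inside the gene it was 4.33% of 2609 CpG reads in HOM, 4.46% of 3316 in HET and 4.6% of 2327 in WT. The low stretch was lopsided, with 47.2%, 48.8% and 55.9% in HOM, HET and WT at 1000 to 900 bp upstream, and 28.6%, 31.6% and 32.7% at 900 to 1000 bp inside the gene. Of the 71 genes, 19 (26.8%) hold more than 20 CpGs between 500 and 2000 bp inside. There these 19 stood at 13.9%, 14.9% and 16.2% in HOM, HET and WT, against 39%, 42.1% and 39.8% in the other 52. The bins pool reads over genes, and how far the 19 made the stretch lopsided was not tested. The other 2610 genes, which are those not chosen as low, dipped far less at the start itself. Their level fell further inside, where 589 of them (22.6%) hold more than 20 CpGs between 500 and 2000 bp from the start. There those 589 stood at 23.9%, 26.7% and 25.8% in HOM, HET and WT, against 73.7%, 77% and 77.5% in the 2021 genes with 20 or fewer. Some genes counted as CpG-poor at their ends therefore have a CpG-rich, lowly methylated stretch just inside.

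**Figure D2:**
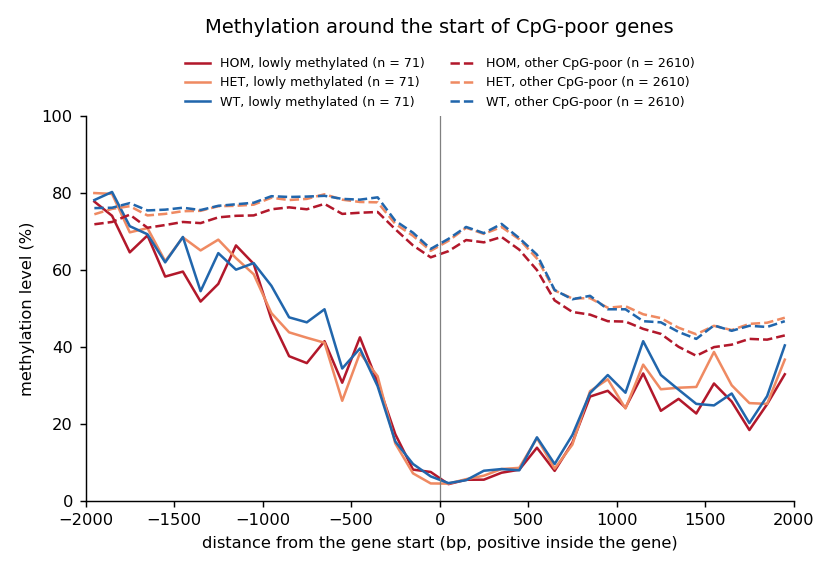
Methylation level (%, vertical axis) in bins of 100 bp against the distance from the gene start (bp, horizontal axis, positive inside the gene) for HOM, HET and WT, with solid lines for lowly methylated members (71 with a strand) and dashed lines for the other CpG-poor genes (2610). The solid lines reach 4.33% in HOM, 4.46% in HET and 4.6% in WT in the first 100 bp inside the gene.

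The 24 members with the lowest mean level include genes known from blood cells and from antiviral defence beside others with no such role. Of all 95 lowly methylated members, 10 are in one of the blood cell lists described below, against 156 of all 3377 members. The B cell list holds 8 of the 10. Herc6, an interferon-inducible ubiquitin ligase gene (window chr6:57579992-57581491), was methylated in 1 of 191 CpG reads in HOM (0.524%, Wilson interval 0.0925 to 2.91%), 0 of 254 in HET (which allows up to 1.18%) and 1 of 210 in WT (0.476%, interval 0.0841 to 2.65%). Evi2b, a myeloid and lymphoid membrane protein gene (chr11:79523263-79524762), had 0 of 127 in HOM (up to 2.36%), 0 of 211 in HET (up to 1.42%) and 1 of 94 in WT (1.06%). Cd69, the early activation antigen of lymphocytes (chr6:129274876-129276375), stood at 1.4% in HOM, 0.893% in HET and 1.12% in WT over 358, 448 and 445 CpG reads. All 3 windows were within a few percent of unmethylated in every library. Slfn9, a schlafen gene, followed at 2.35%, 3.37% and 2.29% in HOM, HET and WT, and Hcls1, a substrate of kinases of the B cell receptor, at 5.52%, 1.26% and 4.1%. Clec2d, a C-type lectin gene, stood at 0.568%, 1.04% and 5.24% in HOM, HET and WT. The other members among the 24 lowest were Gm10509, Baz2a, Ptpn7, Tespa1, Trim34a, Mmrn1, Rgs18, 1700066B19Rik, Zfp937, Nxpe3, Slfn8, Ugt1a7c, Mtrf1l, Nedd9, Akr1e1, Dhrs9, Zfp455 and Rftn2. Ptpn7 encodes a haematopoietic tyrosine phosphatase, Tespa1 an adaptor of lymphocyte antigen receptor signalling, Rgs18 a regulator of G protein signalling in platelets and Nedd9 a docking protein of lymphocytes.

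Among the rest of the 95 were further genes of the immune system, named here after their values were seen. Tlr4, the receptor for bacterial lipopolysaccharide, stood at 10.5% in HOM, 10.3% in HET and 8.09% in WT. Il18rap, an interleukin 18 receptor subunit gene, stood at 13.5%, 9.33% and 7.39% in HOM, HET and WT, and Il6, an inflammatory cytokine gene, at 15.6%, 16.2% and 24.3%. The tripartite motif genes Trim12a, Trim12c, Trim30a and Trim21 belonged to the group as well, as did Plek, a substrate of protein kinase C in blood cells. Not all of the 95 are blood cell genes. Cdh9, a neuronal cadherin gene, stood at 9.17%, 8.89% and 12.7% in HOM, HET and WT, and Stmn2, a neuronal microtubule regulator gene, at 14.6%, 12.4% and 9.49%. Tnr, Scn1a, Nrxn3, Opcml and Astn1, all genes of the nervous system, stood between 9.34 and 21.9% in each of the libraries. A low window was therefore not limited to genes that B cells are known to use.

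Short sequence motifs were counted in the 250 bases before the start, on both strands. This was done for the lowly methylated start windows, all 69 of which have a RefSeq sequence, and the 679 start windows at 80% or over. The RefSeq start nearest the end of the gene span was used. A listed start lay inside the measured window in 58 of the 69, and in 1152 of all 1523 start windows. In the rest, the searched stretch need not lie in the window whose level was measured. The core of the interferon-stimulated response element, searched as 2 copies of GAAA with any 2 bases between them, was present in 11 of the 69 (15.9%) and in 3.68% of the highly methylated ones, against 4.81% of 2681 members and 3.04% of 16456 autosomal protein-coding genes. The 11 were BC147527, Clec2d, Gm1966, Jaml, Lgals9, Mmrn1, Slfn8, Slfn9, Tgtp2, Trim12c and Trim30a. Genes of 1 family, such as Slfn8 and Slfn9 on chromosome 11, were counted separately. The searched stretches held a median of 3 CpGs in the lowly and 2 in the highly methylated set. The core bound by ETS factors and PU.1, searched as AGGAAGT, was present in 17.4% of the lowly and 7.36% of the highly methylated windows, with 11.7% of members and 7.38% of all genes. Hcls1 and Evi2b, printed above, were among the lowly methylated ones that hold it. A TATA box, searched as TATAAA, showed the reverse order, with 13% of the lowly and 25.3% of the highly methylated windows, against 21.4% of members and 12.5% of all genes. The octamer bound by OCT2, searched as ATTTGCAT, was in 2.9% and 2.5%, against 2.16% and 1.65%. Matches of different motifs may overlap, and a match describes the sequence and shows no binding.

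The B cell list, genes of B cell identity and function, stood far below the members as a whole. Of 87 listed genes, 39 were CpG-poor and all 39 were measured, with medians of 50% in HOM, 43.8% in HET and 43.3% in WT, against 78.8%, 81.9% and 82.3% over all members. A group of 8 were lowly methylated (20.5%, against 2.81% of members) and 21 stood below 50%. The 8 were Cd69, Cd53, H2-Ab1, Slamf6, Btla, Ptprc, Ms4a1 and H2-DMb2. H2-Ab1, the beta chain of an MHC class II molecule, stood at 11.9% (Wilson interval 7.84 to 17.7%) in HOM, 11% (7.81 to 15.3%) in HET and 13.4% (9.22 to 19%) in WT. Slamf6, a lymphocyte adhesion receptor gene, stood at 13.6%, 11.8% and 12% in HOM, HET and WT, and Btla, an inhibitory receptor gene, at 12.5%, 10% and 17.1%. The intervals of the libraries overlapped at each of these genes. Ms4a1, which encodes CD20, stood at 26.2%, 14.4% and 15% in HOM, HET and WT, and HOM minus WT missed the threshold (11.1 points, interval 0.911 to 21.5).

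**Figure D3:**
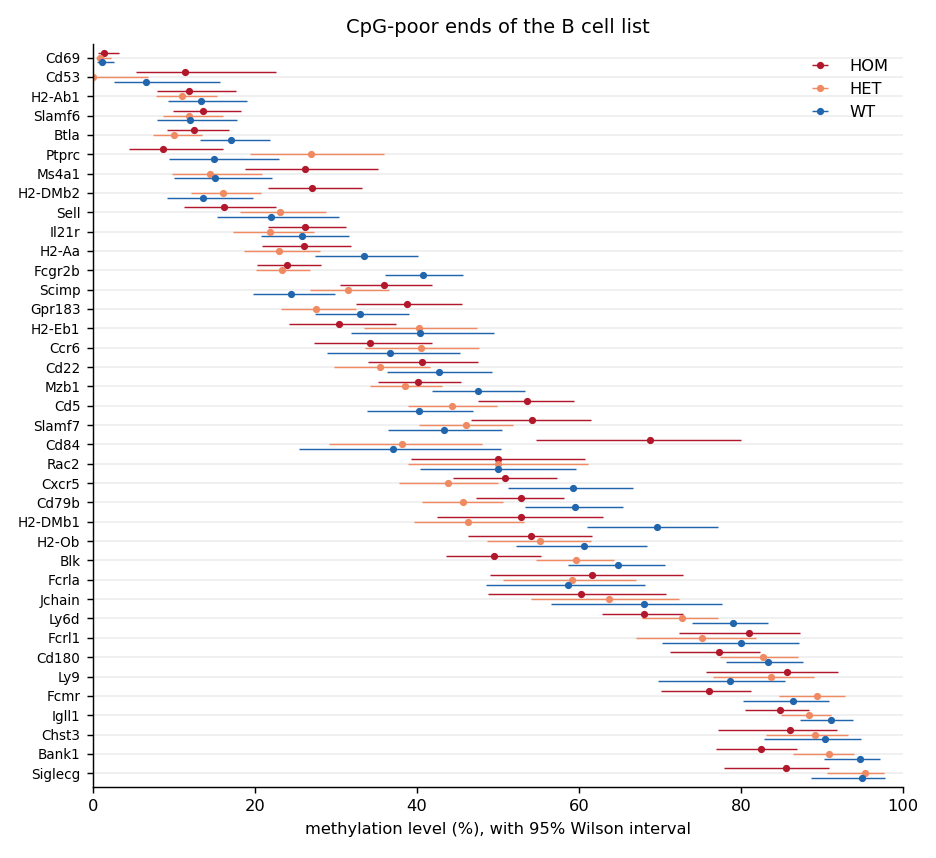
Methylation level (%, horizontal axis) of the CpG-richer end of 38 of the 39 measured genes of the B cell list, ordered by mean level, with points for HOM, HET and WT and 95% Wilson intervals as bars. The genes run from Cd69 at 1.4% in HOM, 0.893% in HET and 1.12% in WT to Siglecg at 85.6%, 95.3% and 94.9%.

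Several B cell genes at the methylated end of the list were low at their other end. Siglecg, an inhibitory receptor of B cells, stood at 85.6%, 95.3% and 94.9% in HOM, HET and WT in the measured window, which is not the start, and at 13.9%, 4.48% and 16% at the start. Cd180, a receptor of the Toll-like family, stood at 77.3%, 82.8% and 83.4% in HOM, HET and WT away from the start and at 13.4%, 8.66% and 16.7% at the start. Bank1, a scaffold protein of B cell receptor signalling, stood at 82.4%, 90.9% and 94.7% in HOM, HET and WT and at 24.9%, 24.9% and 26.8% at its start. Of the 37 B cell genes with both ends measured, 32 (86.5%) had an end below 50%, against 15.7% of 2884 members. The measured window, chosen by CpG number, therefore hides some low starts. Exceptions included Chst3, which stood at 86%, 89.1% and 90.4% in HOM, HET and WT at its start.

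The medians of the other blood cell lists stood between those of the B cell list and of all members, while their shares of low windows differed. Over all 3377 members 2.81% were lowly methylated and 10.8% stood below 50%. Of the 22 measured T cell genes, 2 were lowly methylated and 9 stood below 50%, with medians of 70.6%, 77.4% and 73.1% in HOM, HET and WT. The 2 were Tnfsf8, the CD30 ligand, at 13.6%, 13.5% and 14.4% in HOM, HET and WT, and Rag2, a subunit of the recombinase of antigen receptor genes, at 13.9%, 16.1% and 29.1%. Rag2 also acts in developing B cells. Cd28, the costimulatory receptor of T cells, stood at 22%, 20.9% and 17.2% in HOM, HET and WT, and Cd3d, a subunit of the T cell receptor complex, at 15.5%, 23.3% and 26.4%. Of 27 NK and cytotoxic genes none was lowly methylated and 5 stood below 50%. Among these were Cd244a, an NK cell receptor, at 22.7%, 22.5% and 19% in HOM, HET and WT, and Prf1, which encodes perforin, at 34.1%, 36.4% and 36.2%. Of 50 myeloid and granulocyte genes none was lowly methylated and 2 (4%) stood below 50%, Clec12a and S100a8. Of 19 erythroid and platelet genes 3 did, among them Hemgn and Epb42, and none was lowly methylated. Where both ends were measured, 11 of 19 T cell genes (57.9%) and 7 of 20 NK and cytotoxic genes (35%) had an end below 50%. The same was seen in 8 of 44 myeloid and granulocyte genes (18.2%) and 4 of 15 erythroid and platelet genes (26.7%), against 15.7% of members. By this measure the myeloid share was not below that of members. Whether T, NK or other cells left in the preparation took part in these levels was not tested.

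The lists of liver, gut, muscle, skin and germ cell genes held no lowly methylated window. Nervous system genes, some of which were lowly methylated as named above, are in none of these lists. Of 48 measured liver and plasma protein genes none was lowly methylated, 41 stood at 80% or over, and the medians were 84%, 86.7% and 87.7% in HOM, HET and WT. Alb, which encodes albumin, stood at 81.7% (Wilson interval 74.5 to 87.2%) in HOM, 83.3% (77.7 to 87.8%) in HET and 90.8% (86 to 94%) in WT. None of the 35 genes of exocrine pancreas and gut, the 40 keratin-associated protein genes, the 29 late cornified envelope and Sprr genes or the 31 beta-defensin genes stood below 50%. The same held for the 18 genes of the prolactin family, with medians of 84.6%, 88.6% and 87.4% in HOM, HET and WT, and the 14 type I interferon genes. Where both ends were measured, 3 of 13 type I interferon genes (23.1%) had an end below 50%, against 15.7% of members. For liver genes this was 2 of 41 (4.88%), and for pancreas and gut genes 1 of 32 (3.12%). Among 24 sperm and oocyte genes the one below 50% was Oosp1, an oocyte-secreted protein gene, at 20.2%, 28.9% and 29.5% in HOM, HET and WT. Among 10 muscle genes it was Mybpc1, a myosin-binding protein gene, at 35.9%, 27.1% and 35.3%.

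**Figure D4:**
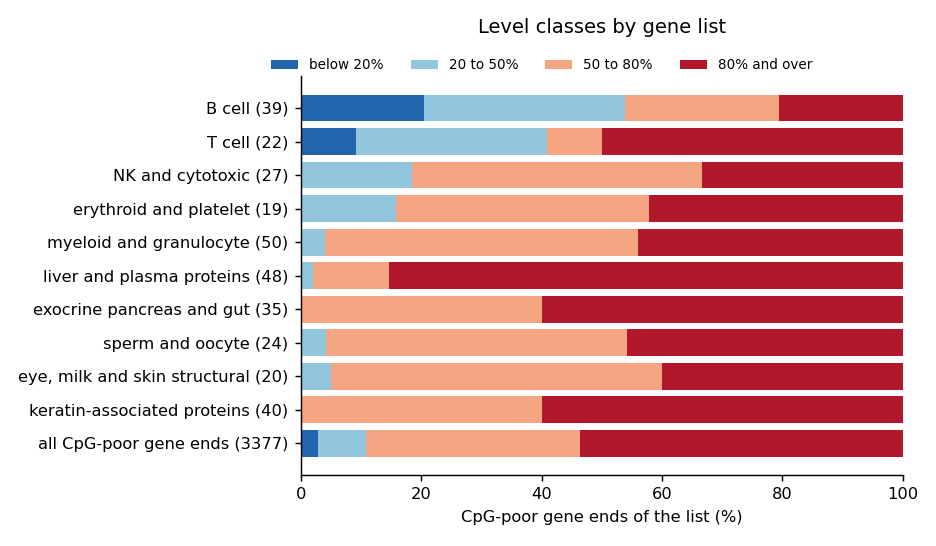
Share of CpG-poor gene ends (%, horizontal axis) in classes of the mean level of HOM, HET and WT, for 10 gene lists and all members, with the number measured in brackets. The B cell list has 8 of 39 genes below 20% and the liver list none of 48, with 41 at 80% or over.

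Within gene families, single members stood apart from methylated relatives. Of 44 Zfp zinc finger genes 4 were lowly methylated, Zfp937, Zfp455, Zfp811 and Zfp52, and 23 stood at 80% or over. Of 42 cytochrome P450 genes 1 was, Cyp2j13, and of 39 genes of serpin clades A and B 1 was, Serpina3g, at 10.7%, 10.9% and 16.9% in HOM, HET and WT. Ugt1a7c stood at 9.01%, 5.4% and 6.87% in HOM, HET and WT and Ugt1a6a at 13.8%, 9.49% and 10.6%. These 2 glucuronosyltransferase genes share one locus, while 15 of the 27 measured genes of their list stood at 80% or over. Of 5 Gimap genes, GTPases of lymphocytes, 1 was lowly methylated and 3 stood below 50%, and of 13 Slamf, Fcrl and Fc receptor genes 7 stood below 50%.

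Between the libraries, CpG-poor gene ends were on average less methylated in HOM than in WT, and HET lay close to WT. HOM minus WT was -3.1 points (interval -3.27 to -2.93) over the 3377 members, and HOM was the lower library at 69.5% of them. The SD of this difference across windows was 7.1 points. HET minus WT was -0.499 points (interval -0.658 to -0.339), with HET lower at 53.2%, and HOM minus HET was -2.6 points (interval -2.76 to -2.44), with HOM lower at 68.1%. The CpG-poor tiles away from gene ends moved by about as much, with -3.56 points for HOM minus WT, -0.746 for HET minus WT and -2.82 for HOM minus HET. Set against tiles of the same level class, members stood 0.289 points higher in HOM minus WT (interval 0.114 to 0.464), and 0.25 points higher in HET minus WT (interval 0.0899 to 0.41). For HOM minus HET the value was 0.0389 points (interval -0.125 to 0.202). Read pairs cannot be told apart in the counts. The gene-end counts were therefore also divided by the number of CpGs expected on a read pair, taken as an unbroken 300 bp. With these divided counts, and tile counts left undivided, the interval against tiles for HOM minus WT included 0 (-0.0391 to 0.617). When levels were scaled so that the tiles of all libraries were equal, the mean differences turned to 0.245 points for HOM minus WT, 0.206 for HET minus WT and 0.0393 for HOM minus HET. The other gene-end windows moved by -1.16 points for HOM minus WT. In the classes of 70 to 80, 80 to 90 and 90 to 100% they moved by -3.75, -3.53 and -2.59 points. Members moved there by -3.88, -3.37 and -2.61 points. At 50 to 60 and 60 to 70% the other windows moved by 0.14 and -1.42 points, against -1.57 and -3.54 at members. The lower level of HOM at the members was thus about that of CpG-poor tiles and, at 70% or over, about that of other gene ends.

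**Figure D5:**
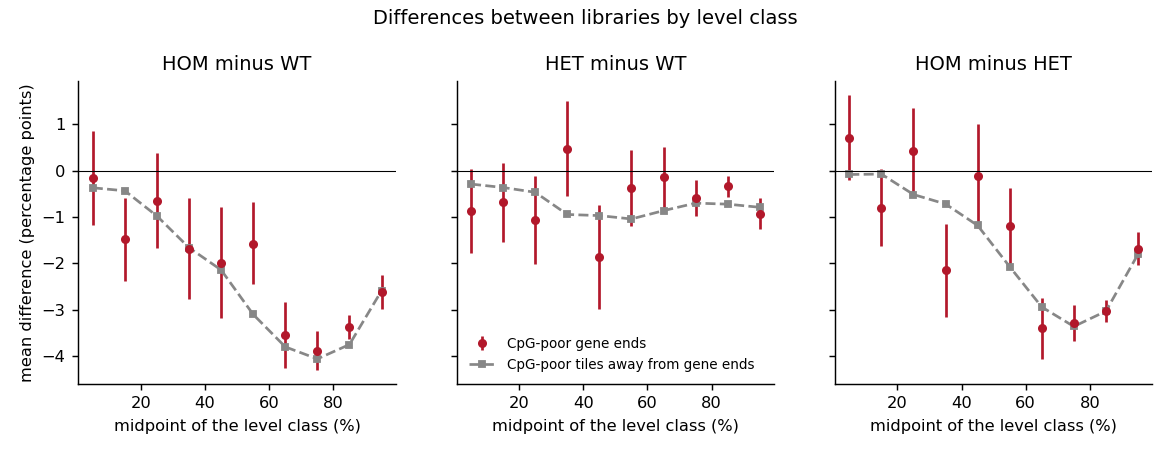
Mean difference between libraries (percentage points, vertical axis) against the midpoint of the level class (%, horizontal axis) for HOM minus WT, HET minus WT and HOM minus HET. Red points are CpG-poor gene ends with 95% counting intervals and grey squares are CpG-poor tiles away from gene ends. In the class of 70 to 80%, HOM minus WT was -3.88 points at gene ends and -4.06 points in tiles.

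The difference between HOM and WT in points was smaller in the lowly methylated class than at higher levels, while HET minus WT showed no such order. In the lowly methylated class HOM minus WT was -1.07 points (interval -1.77 to -0.383), with means of 11.8% in HOM and 12.9% in WT, and HOM was lower at 52 of 95. Relative to the level of WT this was a change of -8.32%, against -4.84% between 50 and 80% and -3.63% at 80% or over. In this class the interval included 0 with the divided counts (-2.6 to 0.452). It also did with the class chosen by HET, the library not compared (-1.28 to 0.108), and at the start by strand (-1.44 to 0.0975). The same held when averaged over CpGs, scaled to equal tiles, with 10 or fewer CpGs, at the CpG-poorer end and with 500 bp outside. In the other alternatives the interval stayed below 0. Between 50 and 80% HOM minus WT was -3.47 points (interval -3.81 to -3.14), and at 80% or over -3.2 points (interval -3.41 to -2.98). By classes of 10 points it reached -3.88 points between 70 and 80% and was -2.61 points between 90 and 100%. HET minus WT in the lowly methylated class was -0.742 points (interval -1.4 to -0.0851), against -0.451 points between 50 and 80% and -0.468 points at 80% or over. HOM minus HET in the lowly methylated class was -0.333 points (interval -0.972 to 0.307). The class was chosen by the mean of the 3 libraries, and 70 of the 95 stood below 20% in every one of them.

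A window was called where 2 libraries differed by at least 10 points and the adjusted p of Fisher's exact test (two-sided, Benjamini-Hochberg over all 19274 windows) was below 0.05. In HOM against WT 31 members were called higher and 215 lower, which is 0.918% and 6.37% of them, against 1.05% and 3.67% of all windows. In HET against WT 35 were higher and 64 lower (1.04% and 1.9%, against 1.47% and 1.3% of all windows). In HOM against HET 30 were higher and 150 lower (0.888% and 4.44%, against 0.773% and 3.08%). Of the 215 lower calls in HOM against WT, 91 fell in windows of 50 to 80% and 101 in windows of 80% or over. The comparisons share libraries, so the calls of one are not independent of another. Over shared CpGs, 23 of the 31 higher and 168 of the 215 lower calls of HOM against WT remained. For HET against WT these were 23 of 35 and 36 of 64, and for HOM against HET 18 of 30 and 116 of 150. With the divided counts, 1 call was left in HOM against WT, Smco3 (0.00519% of all windows), and none in either of the other comparisons. At an unadjusted p below 0.05, 42 lower members and 1 higher were left in HOM against WT, 18 and 9 in HET against WT, and 42 and 8 in HOM against HET. For HOM against WT that is 1.24% and 0.0296% of members, against 0.415% and 0.0623% of all windows, for HET against WT 0.533% and 0.267%, against 0.171% and 0.15%, and for HOM against HET 1.24% and 0.237%, against 0.4% and 0.0934%. Scaled to equal tiles, the calls became 96 higher and 81 lower in HOM against WT. No called member changed its sign in any comparison, but none could. A call needs at least 10 points, and the scaling multiplied levels by at most 1.04597.

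The windows with the greatest lower values in HOM against WT were Smco3, Pcdhb19, Ifi44l, Khdc1b and Plac8l1. Smco3, a membrane protein gene (chr6:136834951-136836450), stood at 43.3% in HOM (Wilson interval 39.3 to 47.3%), 59.4% in HET (55.1 to 63.5%) and 79% in WT (72.8 to 84.1%), so the libraries did not overlap. HOM minus WT was -35.7 points (interval -42.2 to -28.4, adjusted p = 1.34e-15 in Fisher's exact test), and -35.3 points over shared CpGs, where it was called as well. The window had 587 CpG reads in HOM, 524 in HET and 200 in WT, out of proportion to the depth of the libraries, and whether this uneven coverage took part in the difference was not tested. Ifi44l, an interferon-inducible gene (chr3:151762392-151763891), stood at 21% in HOM, 34.8% in HET and 48.8% in WT over 143, 299 and 213 CpG reads (HOM minus WT -27.8 points, interval -36.7 to -17.9), and the difference over shared CpGs was also -27.8 points. Its CpGs 47 and 31 bp before the start were read only in HET. Leaving them out cannot alter HOM minus WT, but they enter the level of HET. Pcdhb19, a clustered protocadherin gene, stood at 34.4%, 44.5% and 65.9% in HOM, HET and WT, the same values over shared CpGs. Khdc1b, a gene of oocytes and early embryos, stood at 61.5%, 83% and 87.1% in HOM, HET and WT, or 63.8%, 84.7% and 87.1% over shared CpGs. Plac8l1 was no longer called over shared CpGs (70.4%, 82.4% and 89.1% in HOM, HET and WT).

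With the same limit of 60 CpG reads, the greatest higher values in HOM against WT were those of Sis, Nxpe2, 4933417A18Rik, Rassf9 and F5. Cd84, a gene of the B cell list with 48 CpG reads in HOM and 54 in WT, was called at 31.7 points. It was not called over shared CpGs. F5, which encodes coagulation factor V (chr1:164150835-164152334), stood at 59.5% in HOM, 52.9% in HET and 40.1% in WT over 148, 227 and 137 CpG reads (HOM minus WT 19.3 points, interval 7.7 to 30.2), and 19 points over shared CpGs. Rassf9 stood at 65.3%, 54.4% and 44.5% in HOM, HET and WT, and 4933417A18Rik at 89.5%, 89.1% and 68.4%, and both were called over shared CpGs as well. Sis, which encodes the sucrase-isomaltase of the gut, was called higher with 87.3% in HOM, 80% in HET and 60.8% in WT, but over shared CpGs it stood at 87.3%, 86.1% and 72.3% and was not called. At Nxpe2 the difference of 21.9 points became -1.67 points over 5 shared CpGs. At both windows the level of WT was higher over shared CpGs than over all CpGs.

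In HET against WT the greatest higher values, with the same limit of 60 CpG reads, were those of Ifnl3, S100a8, Usp17la, 4933417A18Rik and Mctp1. S100a8, a subunit of calprotectin in neutrophils (chr3:90668071-90669570), stood at 52.2% in HOM (Wilson interval 46.9 to 57.5%), 59.7% in HET (54.8 to 64.3%) and 36.5% in WT (31.1 to 42.2%) over 339, 409 and 285 CpG reads. The difference between HET and WT was 23.2 points (interval 15.7 to 30.3) and HOM minus WT 15.7 points, both called over shared CpGs, and WT was the lowest library at both CpGs before the start printed above. Ifnl3, an interferon lambda gene, stood at 73.7%, 95.5% and 72.1% in HOM, HET and WT, with the same values and call over shared CpGs. Usp17la and Mctp1 were not called over shared CpGs, where HET minus WT was 19.8 and 2.88 points. With this limit the greatest lower values were those of Gpr75, Gm10061, Lum, Chrm5 and Cyp2d11. Lum, which encodes the matrix proteoglycan lumican, stood at 34.3% in HOM, 32.4% in HET and 59.4% in WT over 35, 74 and 64 CpG reads, and Gm10061 at 80.9%, 66.3% and 95.3%. Both were called over shared CpGs, and Gpr75, Chrm5 and Cyp2d11 were not.

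In HOM against HET, again with at least 60 CpG reads in both, the greatest higher values were those of Dkk4, Gimap4, Klrb1c, Dnase1l3 and Pebp4. The greatest lower values were those of Akr1c13, Gm11837, Rnf212b, Clec4d and Mcpt8. Gimap4, a GTPase gene of lymphocytes (chr6:48683578-48685077), stood at 50.9% in HOM, 29.8% in HET and 37.7% in WT over 222, 258 and 239 CpG reads (HOM minus HET 21.1 points, interval 12.3 to 29.4). Dkk4, a Wnt inhibitor gene, stood at 75.9%, 51.7% and 68.6% in HOM, HET and WT, and Mcpt8, a mast cell and basophil protease gene, at 50.8%, 72.8% and 69.8%. At Klrb1c, which encodes the NK cell marker NK1.1, the difference of 20.7 points became -2.22 points over shared CpGs, and Clec4d, a C-type lectin gene of myeloid cells, was not called there either. The other 8 kept their calls over shared CpGs. Averaged over CpGs, HOM minus HET was 6.61 points at Dkk4, 6.05 at Dnase1l3 and 8.47 at Pebp4, below the limit for a call. Cd84, with 48 CpG reads in HOM, was called higher than in HET at 30.6 points, but not over shared CpGs.

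Among the 95 lowly methylated members, 1 was called higher and 4 lower in HOM against WT, which is 1.05% and 4.21% of them, close to the 1.05% and 3.67% of all windows. These were H2-DMb2, higher, and Rag2, Cyp2j13, Stap1 and Il15, lower. In HET against WT Zfp937 and Ano3 were called higher and Rag2, Cyp2j13 and Il15 lower (2.11% and 3.16%, against 1.47% and 1.3% of all windows). In HOM against HET H2-DMb2 and Casp1 were called higher and Stap1 and Ptprc lower (2.11% each, against 0.773% and 3.08%). Cyp2j13 stood at 9.88% in HOM, 15.7% in HET and 33.3% in WT over 243, 319 and 195 CpG reads, with -23.5 points for HOM minus WT (interval -31 to -15.8) and -17.7 for HET minus WT (interval -25.4 to -10). At Rag2 the same differences were -15.2 points (interval -23 to -7.03) and -12.9 points (interval -20.7 to -5.21). Stap1, an adaptor gene of the B cell receptor pathway, stood at 5.62%, 27% and 18.4% in HOM, HET and WT. These 3 kept their calls over shared CpGs, but averaged over CpGs the difference at Stap1 was -0.952 points for HOM minus WT and -4.1 for HOM minus HET, against -12.8 and -21.3 points over reads. H2-DMb2, a chaperone subunit of MHC class II loading, stood at 27%, 16% and 13.6% in HOM, HET and WT, but at 18.4%, 10.6% and 11.9% over the shared CpGs, where it was not called. Il15, a cytokine gene, stood at 9.06%, 9.45% and 19.5% in HOM, HET and WT, or 9.06%, 7.79% and 16.7% over shared CpGs, and was not called there. Casp1, an inflammatory protease gene, stood at 23.9%, 12.2% and 15.1% in HOM, HET and WT, and Ano3, a gene of the anoctamin family, at 14.2%, 20.1% and 9.93%. Both were called over shared CpGs, and averaged over CpGs their differences were 8.57 points for HOM minus HET at Casp1 and 7.31 points for HET minus WT at Ano3. Zfp937 stood at 6.29%, 11.3% and 0.926% in HOM, HET and WT, and Ptprc, which encodes CD45, at 8.6%, 26.9% and 15%, and neither was called over shared CpGs.

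In the B cell list HOM against WT gave 4 higher and 5 lower calls among 39 genes, where 1.05% and 3.67% of all windows were called, and HET against WT 0 higher and 4 lower, where the shares of all windows were 1.47% and 1.3%. Over shared CpGs these became 2 and 4, and 0 and 3. Fcgr2b, the inhibitory Fc receptor of B cells (chr1:170975572-170977071), stood at 24% in HOM (Wilson interval 20.2 to 28.2%), 23.3% in HET (20.1 to 26.8%) and 40.8% in WT (36 to 45.6%), so both mutant libraries lay below WT. HOM minus WT was -16.8 points and HET minus WT -17.5 points, and over shared CpGs -13.3 and -14 points. Averaged over CpGs they were -6.2 and -7.99 points, below the limit for a call. Blk, a kinase of the B cell receptor pathway, was lower in HOM, at 49.5%, 59.6% and 64.9% in HOM, HET and WT, with the same values over shared CpGs, and its difference was -15.4 points over reads and -9.81 points averaged over CpGs. Bank1 was called as well, also over shared CpGs, in a window that is not its start, and scaled to equal tiles its difference of -12.3 points became -8.48 points, below the limit for a call. The genes called higher and kept over shared CpGs were Scimp, an adaptor protein of antigen-presenting cells, at 36%, 31.5% and 24.5% in HOM, HET and WT, and Cd5, a negative regulator of antigen receptor signalling, at 53.6%, 44.3% and 40.2%. Averaged over CpGs the difference was 10.3 points at Cd5, but -0.903 points at Scimp, where the sign turned. HOM against WT gave 1 higher and 2 lower calls among the 22 genes of the T cell list, and 0 and 1 among the 48 of the liver list, against the same 1.05% and 3.67% of all windows. The higher call of the T cell list was again Cd5, which is in both lists, and the lower ones were Rag1 and Rag2. With the divided counts, none of these genes was called.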

How the data were processed

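The deposited table gives a methylated read count and a covering read count at every CpG, both raw per the file headers. Per the labels' protocols, libraries were made with a bisulfite kit from 200 ng of DNA sheared to 800 bp on average, and read as pairs of 150 bp. The submitters' processing notes name mm10 and either MethylDackel with BWA 0.7.13 and Picard 2.3.0, or Bismark with Bowtie2, Trim Galore 0.2.8 and Picard 1.91. The set of tools and the filters behind these columns are not stated there. The labels list 2 B cell samples per genotype, and whether a column is 1 of them or a pool is not given either, so the planned count model over replicates fell back on library comparisons. The blood samples were not analysed here.

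Gene spans and promoter sequences came from RefSeq tables of GRCm38.p6, the assembly of mm10, and 2681 of the 3377 members matched a promoter and thus a strand. No exon, intron or untranslated region was assigned to a window. Levels, Wilson intervals, Newcombe intervals of differences and Fisher's exact tests were computed with Python 3.11.15, numpy 2.4.6, pandas 2.3.3 and scipy 1.17.1. The call rule was run on simulated data in which every CpG read was drawn independently. That check could therefore not show how CpGs that share a read pair affect the calls. A floor for a count of 0 is 3 counts. A variant-like CpG stood at 10% or less in one library and at 80% or more in another with at least 5 reads in both. Named are the 24 members with the lowest mean level, the 5 called members with the greatest difference in each direction, and up to 4 members below 50% from each list, all with at least 60 CpG reads, and some of them are not reported here. Members and lists were chosen with earlier results of these data known. Alternatives changed the CpG limit, the end measured, the window, the averaging, the read weighting, the scaling, the size of difference and the definition of a low level, and left out chromosomes 4 and 6. Using shared CpGs only was added after the data had been seen.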

Additional observations from a re-analysis of the deposited data

How the results depend on the processing

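The lower mean of HOM against WT and against HET kept its sign in all alternatives but the scaling to equal tiles, where the mean differences were 0.245 points for HOM minus WT, 0.206 for HET minus WT and 0.0393 for HOM minus HET, with 96 higher and 81 lower calls in HOM against WT and 77 and 81 in HOM against HET. Minimums of 60 CpG reads or 5 CpGs, leaving out variant-like CpGs, chromosome 6 or chromosome 4, and defining the low class by HET or by every library moved no count by over 1.5 times and no mean beyond its interval. With the low class defined by HET, HOM minus WT in it was -0.587 points, and its interval included 0 (-1.28 to 0.108). With a low level set below 30%, 168 windows were low. With 10 or fewer CpGs at both ends, calls were 2 higher and 29 lower in HOM against WT, 6 and 8 in HET against WT and 5 and 27 in HOM against HET, with 13 low windows, -0.257 points for HET minus WT, -2.81 for HOM minus HET, 1.9 for HOM minus WT in the low class and 0.574 against tiles. With 30 or fewer they were 85 and 377, 95 and 122, and 65 and 291, with 366 low windows and -2.81 points for HOM minus WT. At the CpG-poorer end they were 8 and 120, 10 and 29, and 14 and 96, with 29 low windows, -3.77 points for HOM minus WT, -3.11 for HOM minus HET, -0.0451 in the low class and -0.248 against tiles. At the start by strand, 15 were higher in HOM than in HET. With 500 bp outside, calls were 12 and 110, 14 and 36, and 16 and 78, with 157 low windows, -0.0727 points in the low class and 0.0588 against tiles. Averaged over CpGs, 15 were higher in HOM than in WT, 21 higher and 36 lower in HET than in WT and 14 higher in HOM than in HET, with -0.222 points for HET minus WT and -0.244 in the low class. Divided counts left 0 and 1, 0 and 0, and 0 and 0 calls. Over shared CpGs HET minus WT was -0.311 points with 23 and 38 calls, and 19 were higher in HOM than in HET. At 20 points or more, calls were 6 and 28, 8 and 13, and 7 and 19. The cause of these shifts was not tested, except that fewer windows or reads enter the stricter settings.

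No paired analysis was possible because each genotype has 1 pair of columns and these carry no replicate number. For the same reason no replicate could be left out, and the spread between animals is unknown. Depth limits single windows: at a median of 143 to 203 CpG reads and an expected 3.67 CpGs per read pair, differences of a few points were not detectable in a single window.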

Other observations

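HOM stood below WT on average on every autosome. The mean difference at CpG-poor gene ends ran between -1.73 points over 260 members on chromosome 1 and -4.44 points over 143 members on chromosome 17. HET minus WT had no common sign, with -1.59 points over 105 members on chromosome 15, which carries Kmt2d, and 0.945 points over 93 members on chromosome 19.

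The CpGs that had no read in one library, although both others had at least 10, were less methylated than the rest. Those missing in HOM stood at 60.2% in the other libraries, against 75.6% at the CpGs read in all. For CpGs missing in HET the values were 53.7% and 73.6%, and for those missing in WT 56.1% and 73.7%. Of the 95 lowly methylated members 21 held such a CpG, and 94 of the 95 were also below 20% over shared CpGs. A variant-like CpG was found in 21 members and in 0 of the lowly methylated ones.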
